A study of Mus musculus with 10 samples.

Results

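The 8 genes described here were listed together as signals from intestinal epithelium to lymphocytes. They include the chemokines Ccl20, Ccl25, Ccl28 and Cxcl10, the cytokines Il15 and Il7, and the inhibitory ligand PD-L1 (Cd274). Ubd encodes the ubiquitin-like modifier FAT10, which tags proteins for the proteasome and is not itself such a signal. The 8 were chosen by symbol, with earlier results of these data known, and all 8 were found among the 13932 genes of the count table. RNA came from live ileal cells that lacked the leukocyte marker CD45 and carried the epithelial marker EpCAM, and each of the 10 libraries was 1 mouse. In the 5 dIEC mice both alleles of the MHC class II gene H2-Ab1 were floxed (H2-Ab1 fl/fl) and Cre was driven by the villin promoter, which is active throughout intestinal epithelium. The 5 WT mice carried the same floxed alleles without Cre, so an effect of Cre itself and an effect of the deletion cannot be told apart. The text of the series writes Cre- for both, and the genotypes used here are those of the sample labels. Each genotype had 3 males (dIEC 1, 3 and 5; WT 2, 4 and 6) and 2 females (dIEC 7 and 9; WT 8 and 10), and their age is not given in the sources used here.

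Chemokines are small secreted proteins that draw in cells bearing the matching receptor. Epithelial CCL25 recruits CCR9-bearing lymphocytes to the small intestine, CCL28 recruits CCR10-bearing antibody-secreting cells, CCL20 recruits CCR6-bearing cells towards lymphoid follicles, and CXCL10 recruits CXCR3-bearing effector T cells. Interleukins 15 and 7 sustain lymphocytes in and near the epithelium, and PD-L1 restrains T cells through PD-1. Cxcl10, Cd274 and Ubd are well-known targets of interferon gamma.

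The libraries held 9174101 to 13484363 counts, and 12477 genes passed the filter on low counts, all 8 among them. Levels are given as CPM, counts scaled to a common library total with TMM factors. H2-Ab1 lay at 0.766 to 3.11 CPM in dIEC and at 62.8 to 368 CPM in WT (edgeR quasi-likelihood adjusted p = 0.000904). All 9 epithelial and all 5 ileal marker genes were listed, against 2 of 16 T cell genes (Lck and Gzma), 3 of 10 B and plasma cell genes, 4 of 15 myeloid genes, 3 of 8 general leukocyte genes and 5 of 15 stromal and endothelial genes. The libraries differed widely in the mean log2 CPM of 18 proliferation genes, called the proliferation score here, with the lowest value, 2.93, in dIEC female 7 and the highest, 5.63, in dIEC female 9.

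No gene of the 8 passed the test between dIEC and WT, a Benjamini-Hochberg adjusted p under 0.05 over all genes. The count was 0 of 8 in edgeR and in limma voom, where edgeR called 0.016% of all genes. It was also 0 in DESeq2, which gave Cxcl10 no adjusted p. At an unadjusted p under 0.05 edgeR gave 3 of the 8, Ccl20, Cd274 and Il7, all with higher fitted levels in dIEC, where 2.85% of all genes lay under that level. The fitted log2 fold change was above 0 for 6 of the 8 with a median of 0.89, beside a median of 0.013 over all 12477 genes. Because the 8 were chosen with earlier results of these data known, these contrasts are no test of the set. The CPM values of the genotypes overlapped for each of the 8, and 0.321% of all genes had no overlap. In bulk RNA, fewer cells of a type and less RNA per cell cannot be told apart.

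**Figure D1:**
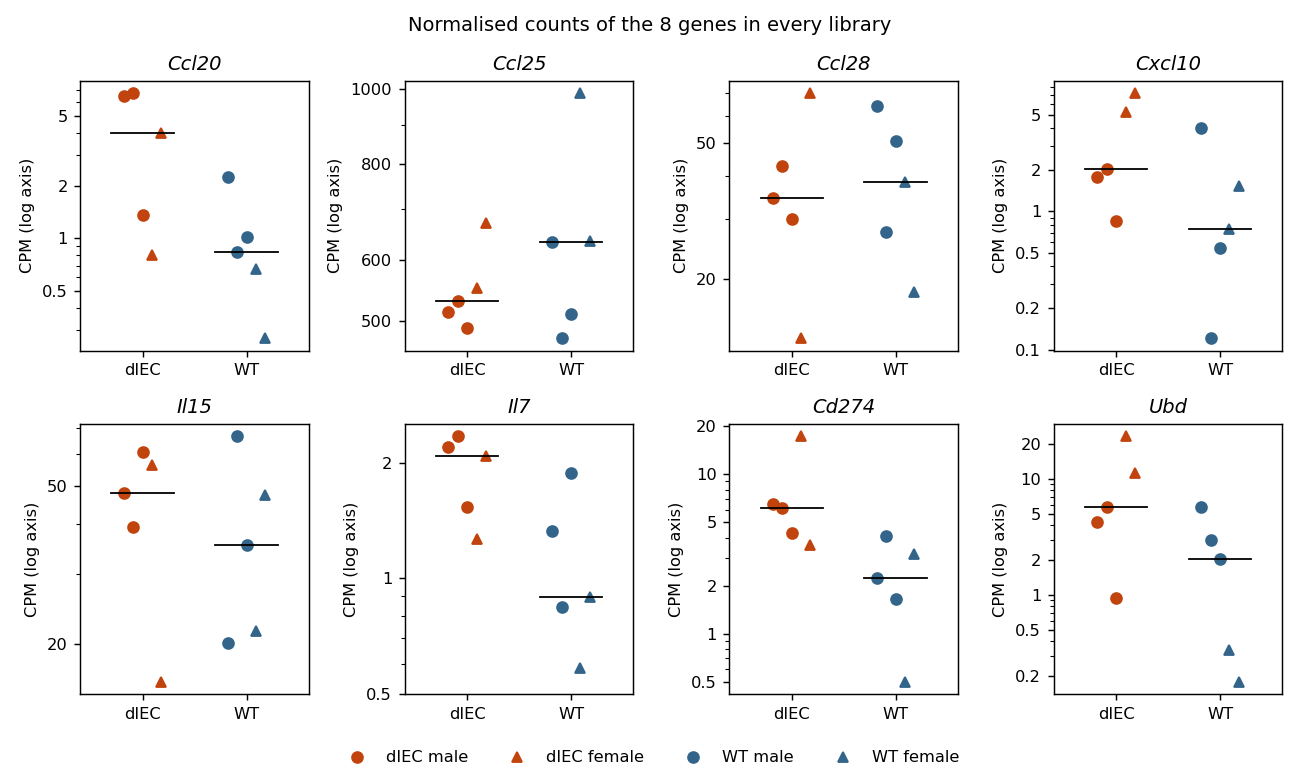
CPM of each of the 8 genes on log axes, with 1 point per mouse, dIEC left of WT, circles for males, triangles for females and a bar at the median of 5. The genotypes overlap in every panel, dIEC female 7 is highest for Cd274 at 17.2 CPM, and the WT females are lowest for Ubd at 0.333 and 0.179 CPM.

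The 8 genes spanned a wide range of levels. Per kilobase of annotated exon, Ccl25 was highest, at 74.0 ± 9.42 CPM per kb in dIEC and 87.1 ± 27.3 CPM per kb in WT (SD, n = 5 each). Its lowest library, at 63.8 CPM per kb, lay above the highest library for Il15, at 29.4 CPM per kb. Il15 averaged 19.5 ± 7.81 CPM per kb in dIEC and 16.9 ± 8.56 CPM per kb in WT, and Ccl28 averaged 7.87 ± 4.26 CPM per kb in dIEC and 8.20 ± 3.74 CPM per kb in WT. Ubd stood at 9.77 ± 9.42 CPM per kb in dIEC and 2.42 ± 2.44 CPM per kb in WT. The ranges of Il15, Ccl28 and Ubd overlapped, so their order is not fixed by these libraries. Ccl20, Cd274 and Cxcl10 had overlapping ranges and means of 1.72, 1.36 and 1.07 CPM per kb over all 10 libraries. Il7 was lowest, at 0.333 ± 0.0820 CPM per kb in dIEC and 0.195 ± 0.0896 CPM per kb in WT, and its range lay within that of Cxcl10.

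Among the chemokines that act on homing at rest, Ccl25 (ENSMUSG00000023235; GRCm38 chromosome 8, 4325210 to 4360020, plus strand) was abundant in every mouse. It stood at 514, 531, 489, 551 and 670 CPM in dIEC males 1, 3 and 5 and females 7 and 9, against 633, 475, 510, 988 and 635 CPM in WT males 2, 4 and 6 and females 8 and 10. WT female 8 was highest, and every dIEC value lay inside the WT range. Its log2 fold change was -0.21 (SE 0.17, edgeR adjusted p = 0.9999), and its 95% interval ran from 0.663 to 1.13 times the WT level. Ccr9, which encodes the receptor for CCL25, was at 0.574 to 1.36 CPM in dIEC and 0.782 to 1.44 CPM in WT. In the annotation, 204 exon bases of Ccl25 overlap exons of Elavl1 on the other strand, and the use of strand in counting is not given in the sources used here.

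Ccl28 (ENSMUSG00000074715; chromosome 13, 119623819 to 119654359, plus strand) had nearly equal group means, at 38.1 ± 20.7 CPM in dIEC and 39.7 ± 18.1 CPM in WT (SD, n = 5 each). Its values were 34.6, 42.7, 30.1, 13.4 and 69.7 CPM in dIEC males 1, 3 and 5 and females 7 and 9, and 63.8, 27.4, 50.6, 38.3 and 18.4 CPM in WT males 2, 4 and 6 and females 8 and 10. The lowest and the highest library were the dIEC females, which were also at the ends of the proliferation score. In the fit it was -0.019 in log2 fold change (SE 0.43), and its 95% interval ran from 0.509 to 1.91 times the WT level.

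Ccl20 (ENSMUSG00000026166; chromosome 1, 83116766 to 83119167, plus strand) had the smallest unadjusted p of the 8 between genotypes, at rank 20 of 12477. It had 6.48, 6.72, 1.36, 0.804 and 3.98 CPM in dIEC males 1, 3 and 5 and females 7 and 9, against 2.24, 0.842, 1.02, 0.667 and 0.269 CPM in WT males 2, 4 and 6 and females 8 and 10. In 3 dIEC mice it was above every WT mouse, and in dIEC male 5 and dIEC female 7 it was within the WT range. Counts were low, at 7 to 80 in dIEC and 3 to 27 in WT. Its log2 fold change was 1.99 (SE 0.58, unadjusted p = 0.00586, edgeR adjusted p = 0.9999). The adjusted p for Ccl20 was 0.572 in DESeq2 and 0.213 in limma voom. With the proliferation score as a covariate its log2 fold change was 1.85 (SE 0.41, edgeR adjusted p = 0.129). Markers of follicle-associated epithelium and M cells, the epithelium over lymphoid follicles that is a known source of CCL20, summed to 158 to 204 CPM in dIEC and 128 to 189 CPM in WT over the 8 of 11 that were listed. Gp2, Sox8 and Aif1 were not listed. Of the 8 listed, 7 had fitted levels above WT in dIEC, as had 52.6% of all genes. Spib was below WT, at a log2 fold change of -0.33 (SE 0.35). The median log2 fold change of the 8 markers was 0.23. In edgeR 0 passed the test and 0 had an unadjusted p under 0.05, and DESeq2 and limma voom called 0. Their part in the Ccl20 values was not tested.

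Cxcl10 (ENSMUSG00000034855; chromosome 5, 92346638 to 92348889, minus strand) had 1.78, 2.02, 0.851, 5.28 and 7.17 CPM in dIEC males 1, 3 and 5 and females 7 and 9, against 3.99, 0.120, 0.547, 0.750 and 1.52 CPM in WT males 2, 4 and 6 and females 8 and 10. The dIEC females were the highest of all, WT male 2 came next, and WT male 4 rested on 1 count. Its fitted log2 fold change was 0.98 (SE 0.77, unadjusted p = 0.23, edgeR adjusted p = 0.9999), with a 95% interval from 0.605 to 6.45 times the WT level. In the annotation, 133 exon bases of Cxcl10 overlap exons of Art3 on the other strand. Without WT male 2 the log2 fold change was 2.29 and without WT female 8 it was 0.56. Dpp4, whose peptidase trims CXCL10, was at 1240 ± 333 CPM in dIEC and 1230 ± 291 CPM in WT (SD, n = 5 each).

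The promoters of Cxcl10, Cd274 and Ubd are shown because these genes were named above as well-known interferon gamma targets. Each runs 5′ to 3′ on the gene's strand, from 250 bases before the start to 50 after it, as RefSeq gives it on GRCm38.p6. Capitals mark the matches found, both in Cxcl10: an interferon-stimulated response element, searched as GAAA, any 2 bases and GAAA, at -213 to -204, and a kappaB motif, searched as GGGA, any 2 bases and TTCC, at -159 to -150 from the start.
Cxcl10: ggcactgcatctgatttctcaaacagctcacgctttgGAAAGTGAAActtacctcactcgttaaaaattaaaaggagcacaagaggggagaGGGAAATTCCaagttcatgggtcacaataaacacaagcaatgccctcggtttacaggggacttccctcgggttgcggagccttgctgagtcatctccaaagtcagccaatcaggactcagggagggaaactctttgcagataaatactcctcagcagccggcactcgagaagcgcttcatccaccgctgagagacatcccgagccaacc
Cd274: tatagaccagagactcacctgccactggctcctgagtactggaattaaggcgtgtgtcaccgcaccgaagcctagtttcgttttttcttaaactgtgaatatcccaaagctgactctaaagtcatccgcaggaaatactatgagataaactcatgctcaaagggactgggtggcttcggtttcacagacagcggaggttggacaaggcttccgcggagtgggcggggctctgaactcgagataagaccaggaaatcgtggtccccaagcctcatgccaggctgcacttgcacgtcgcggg
Ubd: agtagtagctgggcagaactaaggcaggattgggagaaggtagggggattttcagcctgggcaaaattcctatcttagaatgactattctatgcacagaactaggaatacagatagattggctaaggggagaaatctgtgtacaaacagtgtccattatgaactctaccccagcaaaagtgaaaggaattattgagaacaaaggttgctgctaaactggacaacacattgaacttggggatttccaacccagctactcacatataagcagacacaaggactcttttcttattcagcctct
They lie at chr5:92348840-92349139 on the minus strand for Cxcl10, chr19:29367188-29367487 on the plus strand for Cd274 and chr17:37193642-37193941 on the plus strand for Ubd. Both strands were searched for these motifs and for TTCNNNGAA, the gamma-activated site, and the Cxcl10 matches do not overlap each other. Of 32851 RefSeq promoters of this length, 3.44% held the response element, 1.47% the kappaB motif and 8.3% TTCNNNGAA. No match to these motifs was found in these windows of Cd274, Ubd, Ccl20 or Ccl28 or in either listed promoter of Ccl25, which says only that these letters are not there. Sequences near the kappaB letters, such as GGGGACTTCC in Cxcl10 and GGGGATTTCC in Ubd, were not searched for. Nor were sequences near the response element letters, such as AAAAGTGAAA in Ubd. TATAAA, searched on the gene's strand and held by 8.32% of promoters, matched at -16 to -11 in the second listed promoter of Ccl25 and in no other of the 7. Il15 and Il7 had no entry.

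Il15 (ENSMUSG00000031712; chromosome 8, 82331632 to 82403222, minus strand), whose product is presented on the IL-15 receptor alpha chain to intraepithelial lymphocytes, had 47.9, 39.3, 60.7, 56.3 and 16.1 CPM in dIEC males 1, 3 and 5 and females 7 and 9. In WT males 2, 4 and 6 and females 8 and 10 it had 20.1, 66.5, 35.4, 21.6 and 47.4 CPM. The genotypes overlapped almost wholly, with dIEC female 9 lowest and WT male 4 highest. The log2 fold change was 0.19 (SE 0.40, edgeR adjusted p = 0.9999), with a 95% interval from 0.623 to 2.10 times the WT level. Il15ra, the gene of that receptor chain, was at 17.3 ± 3.30 CPM in dIEC and 15.0 ± 2.14 CPM in WT (SD, n = 5 each; log2 fold change 0.20, SE 0.16).

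Il7 (ENSMUSG00000040329; chromosome 3, 7569994 to 7613760, minus strand), a survival factor for lymphocytes, had 2.19, 2.35, 1.53, 1.26 and 2.08 CPM in dIEC males 1, 3 and 5 and females 7 and 9, against 1.33, 0.842, 1.88, 0.583 and 0.896 CPM in WT males 2, 4 and 6 and females 8 and 10. In 3 dIEC mice it was above every WT mouse, and the counts were 11 to 34 in dIEC and 7 to 24 in WT. The log2 fold change was 0.80 (SE 0.32, unadjusted p = 0.0306, edgeR adjusted p = 0.9999), at rank 208 of 12477. An antisense gene shares 105 exon bases with Il7.

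Cd274 (ENSMUSG00000016496; chromosome 19, 29367455 to 29388095, plus strand) had 6.48, 6.13, 4.26, 17.2 and 3.61 CPM in dIEC males 1, 3 and 5 and females 7 and 9, against 2.24, 4.09, 1.64, 0.500 and 3.14 CPM in WT males 2, 4 and 6 and females 8 and 10. In 4 dIEC mice it was above every WT mouse, and dIEC female 9 lay below WT male 4. It was the only gene of the 8 for which all 3 dIEC males were above all 3 WT males, as were 2.99% of all genes. The log2 fold change was 1.66 (SE 0.57, unadjusted p = 0.0156, edgeR adjusted p = 0.9999), at rank 73, with a 95% interval from 1.31 to 7.61 times the WT level. It was 1.07 without dIEC female 7, which moves it by over 1.5 times, and 1.11 (SE 0.37) in males alone. The adjusted p for Cd274 was 0.784 in DESeq2 and 0.188 in limma voom. With the proliferation score as a covariate its log2 fold change was 1.73 (SE 0.33, edgeR adjusted p = 0.117). An antisense gene shares 511 exon bases with Cd274. Listed general leukocyte markers, Ptprc, Rac2 and Lcp1, summed to 2.76 to 11.7 CPM in dIEC and 3.49 to 7.39 CPM in WT, and listed myeloid markers to 16.7 to 24.1 CPM in dIEC and 13.8 to 24.4 CPM in WT; their part in the Cd274, Cxcl10 and Ubd values was not tested.

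Ubd (ENSMUSG00000035186; chromosome 17, 37193892 to 37196095, plus strand), which tags proteins for the proteasome, had 4.29, 5.71, 0.937, 23.3 and 11.2 CPM in dIEC males 1, 3 and 5 and females 7 and 9. In WT males 2, 4 and 6 and females 8 and 10 it had 5.73, 3.01, 2.03, 0.333 and 0.179 CPM. The dIEC females were highest, the WT females lowest, and the males of both genotypes lay between them. The WT female values rested on 4 and 2 counts, against 203 and 183 counts in dIEC females. The log2 fold change over both sexes was 1.81 (SE 1.08, unadjusted p = 0.123, edgeR adjusted p = 0.9999).

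**Figure D2:**
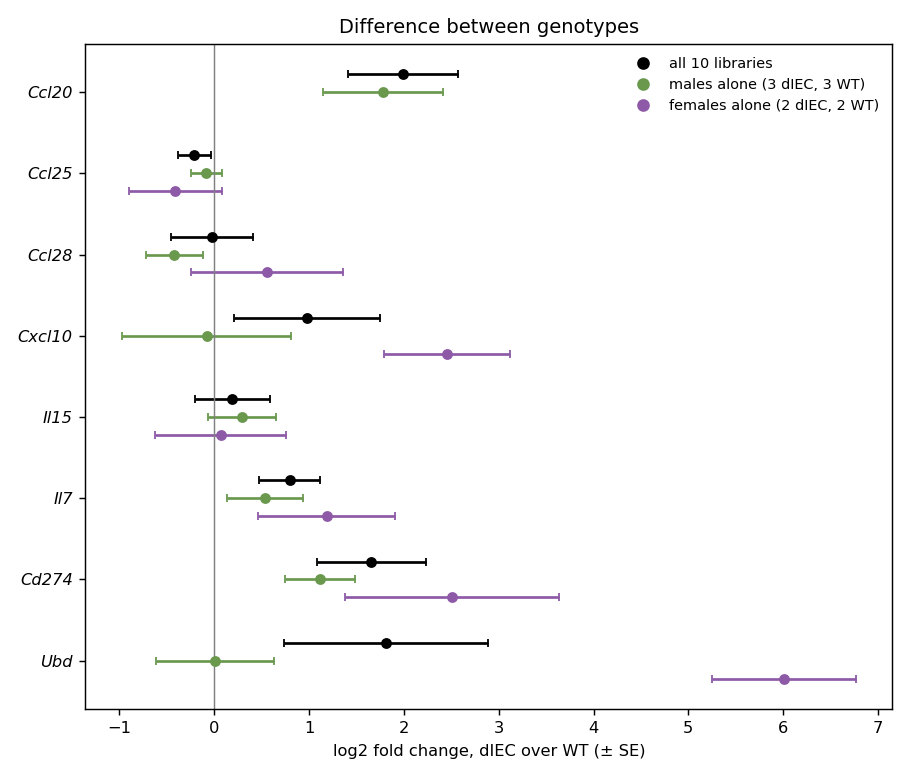
Log2 fold change of each of the 8 genes, dIEC over WT, as a point with a bar of 1 SE to either side, for all 10 libraries, males alone and females alone (Ccl20 without females). Ccl20 is at 1.99 and Cd274 at 1.66 in all libraries, and Ubd is at 0.010 in males and 6.01 in females.

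For Ubd the difference between genotypes passed the test of dependence on sex in DESeq2 and not in edgeR or limma voom. Its log2 fold change was 6.01 (SE 0.76, edgeR adjusted p = 0.66) in females alone and 0.010 (SE 0.62) in males alone. The interaction, the female minus the male log2 fold change, was 5.98 (SE 1.17, unadjusted p = 0.000594, rank 6) with an edgeR adjusted p of 1, while DESeq2 gave an adjusted p of 0.000885 and called 0.144% of all genes. In edgeR 0 of the 8 passed the interaction test, against 0.00801% of all genes, and 1 of the 8, Ubd, had an unadjusted p under 0.05, against 2.1% of all genes; DESeq2 called 1 of the 8 and limma voom 0. The interaction was also above 0 for 25 of 28 interferon gamma signalling and target genes, against 54.8% of all genes. Their median was 0.99, and it ran from 0.74 to 1.24 with each mouse left out. Of the 28, 13 had an unadjusted p under 0.05 and 0 passed the adjusted test in edgeR. For the proliferation genes the interaction was above 0 in 18 of 18, with a median of 0.96, and 0 had an unadjusted p under 0.05. Interactions above 0 were thus not particular to the interferon gamma genes. Each genotype had only 2 females. For Cxcl10 the log2 fold change was 2.45 (SE 0.66) in females alone and -0.079 (SE 0.89) in males alone, with an interaction of 2.50 (SE 1.37, unadjusted p = 0.101, edgeR adjusted p = 1). That interaction was 0.39 without WT male 2. Both dIEC females lay above both WT females for 5 of the 8, Ccl20, Cxcl10, Il7, Cd274 and Ubd, as did 7.51% of all genes.

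Between females and males 0 of the 8 passed the edgeR test, against 0.0401% of all genes, and 0 passed in DESeq2 or limma voom. In that comparison DESeq2 gave Cxcl10 and Il7 no adjusted p. The sexes overlapped for all 8, where 0.938% of all genes had no overlap. Ccl25 alone had an unadjusted p under 0.05, against 4.44% of all genes. It averaged 711 ± 191 CPM in females and 525 ± 56.3 CPM in males (SD, n = 4 and n = 6; log2 fold change 0.42, SE 0.18, unadjusted p = 0.0350, edgeR adjusted p = 0.9996), and without WT female 8 the log2 fold change was 0.21. With the proliferation score as a covariate Ccl25 was 0.51 higher in females on the log2 scale (SE 0.13, edgeR adjusted p = 0.045) and Il15 was 0.86 lower, at -0.86 (SE 0.16, adjusted p = 0.0200), where 3.72% of all genes passed. The Ccl25 call was kept in 1 of the 10 fits that each left out a mouse, and the Il15 call was lost without WT male 4 (adjusted p = 0.126) and without WT female 8 (adjusted p = 0.0575).

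Across mice, 4 of the 8 genes passed a test of slope on the proliferation score. That is near the share over all genes, so the count is not particular to the 8. In an edgeR fit with sex, genotype and the score, Ccl28 and Ccl20 rose with the score and Il15 and Cd274 fell, where 54.3% of all genes passed the same test, 26.3% with a positive and 28% with a negative slope. The slope was 0.85 for Ccl28 (log2 CPM per unit of score, SE 0.07, adjusted p = 1.09e-06) and -0.76 for Il15 (SE 0.09, adjusted p = 2.75e-05), and both passed in 10 of 10 fits that each left out a mouse. It was 0.89 for Ccl20 (SE 0.27, adjusted p = 0.0137), which did not pass without dIEC female 7 (adjusted p = 0.0846) or without dIEC female 9 (adjusted p = 0.111). It was -0.82 for Cd274 (SE 0.19, adjusted p = 0.00374), and -0.56 without dIEC female 7 (adjusted p = 0.105). Ccl25, Il7, Cxcl10 and Ubd had slopes of 0.17, 0.32, 0.45 and -0.12 that did not pass in edgeR (adjusted p = 0.0785, 0.159, 0.383 and 0.872). Ccl25 passed with DESeq2 (slope 0.18, adjusted p = 0.0447), which makes 5 of the 8. Scaled by library size alone, Ccl25 (slope 0.38, adjusted p = 0.000912) and Il7 (slope 0.52, adjusted p = 0.0284) passed in edgeR, which makes 6 of the 8 beside 56.5% of all genes. The score itself was 4.65, 4.83, 4.40, 2.93 and 5.63 in dIEC males 1, 3 and 5 and females 7 and 9, and 5.16, 3.66, 5.19, 4.58 and 3.30 in WT males 2, 4 and 6 and females 8 and 10, so the genotypes overlapped.

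**Figure D3:**
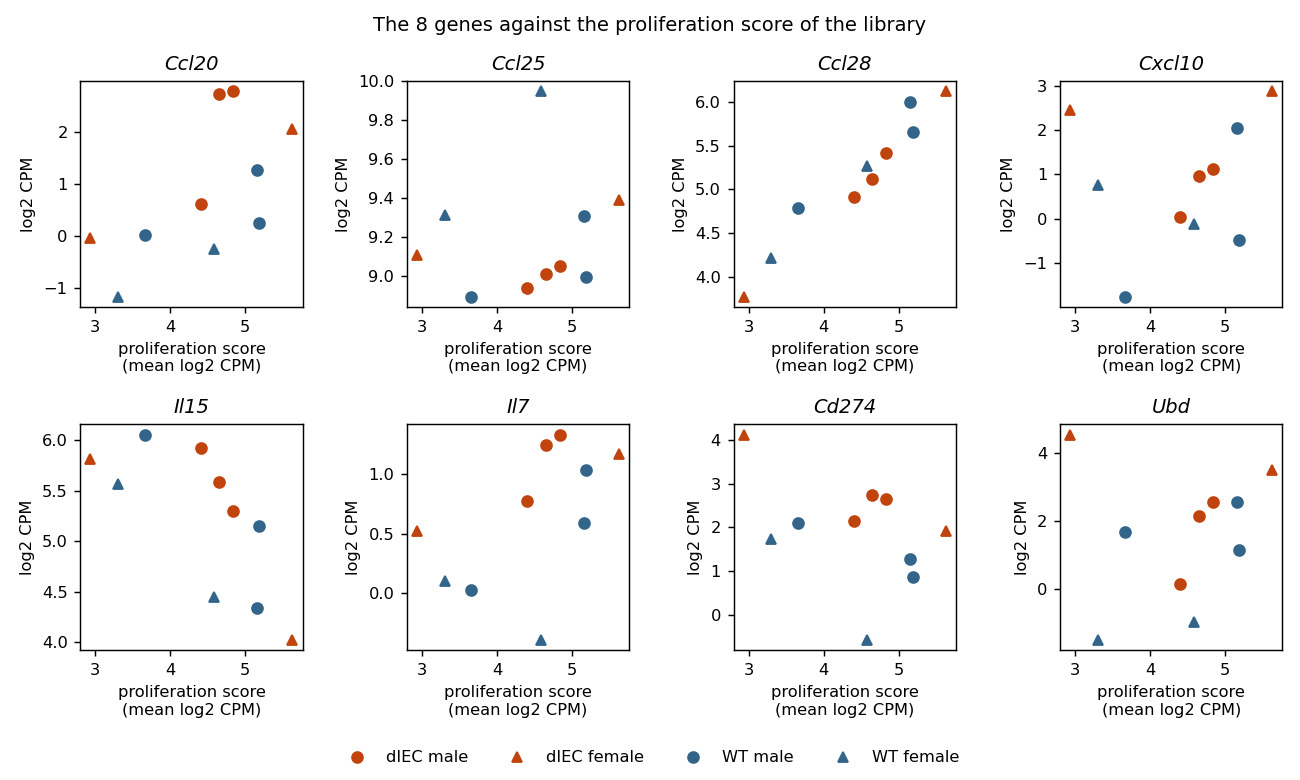
Log2 CPM of each of the 8 genes against the proliferation score (mean log2 CPM of 18 genes), 1 point per mouse, circles for males, triangles for females, dIEC in orange and WT in blue. Ccl28 climbs and Il15 descends along the score, with slopes of 0.85 and -0.76.

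Ubd, Cd274 and Cxcl10 had positive slopes on the mean log2 CPM of 28 interferon gamma signalling and target genes that exclude the 8. The slopes were 3.05 for Ubd (SE 0.75), 1.72 for Cd274 (SE 0.48) and 1.78 for Cxcl10 (SE 0.81), each with an edgeR adjusted p of 0.616, where 0.016% of all genes passed. DESeq2 called Ubd (adjusted p = 0.0123) among 0.313% of all genes, and limma voom called Ubd (adjusted p = 0.0349) and Cd274 (adjusted p = 0.0364) among 4.89%. With each mouse left out in edgeR, the Cxcl10 slope ran from 0.26 without WT male 2 to 3.50 without dIEC female 7. The Ubd slope ran from 2.67 to 4.55 and the Cd274 slope from 1.18 to 2.10 in the same fits. That score was highest in dIEC female 7 at 6.47 and lowest in WT female 8 at 4.48.

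By pattern over the 10 libraries, each member was set beside 11161 genes by the Pearson r of log2 CPM, a description in which all genes share library and depth. Closest to Ccl28 were Lrig1, a marker of crypt stem cells (r = 0.987), Rcc2 and the DNA polymerase gene Pole. Closest to Il15 were Ccdc68 (r = 0.984), the transcription factor gene Bhlhe40 and Tmc7. Closest to Ccl25 were the arsenic methyltransferase gene As3mt (r = 0.984), Pon3 and Churc1. Closest to Cd274 were the centriole gene Cep135 (r = 0.971), the class I gene H2-Q4 and Sp100. Closest to Ubd were Mir5107 (r = 0.972), which is uncertain because it shares exon bases with Cd74, then Cd74, the class II invariant chain (r = 0.959), and the NF-kappaB subunit gene Nfkb2 (r = 0.948). Ccl20 was closest to Zc3h6 (r = 0.950), Fam214a and Abi3bp, Cxcl10 to the class II promoter factor gene Rfx5 (r = 0.932), Rbl1 and Rasd1, and Il7 to the interferon-induced gene Ifit2 (r = 0.899), Senp1 and Zfp395.

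In each list of related genes 0 passed the test between genotypes in edgeR, DESeq2 or limma voom. At an unadjusted p under 0.05 edgeR gave 1 of the other cytokines, 2 interferon gamma genes, 3 NF-kappaB genes, 1 FAT10 conjugation gene and 0 in the other lists, beside 2.85% of all genes. The fitted level was above WT for 52.6% of all genes, with a median log2 fold change of 0.013. Like the 8, the lists were chosen with earlier results of these data known, so the counts below describe and do not test them. Of other chemokines 8 of 30 were listed and 6 tested, all 6 with fitted levels above WT and a median log2 fold change of 0.27; Cxcl16 was at 0.51 (SE 0.30) and Cxcl11, another CXCR3 ligand, at 0.44 (SE 0.21). Their median was 0.81 in females alone and 0.073 in males alone. Of other cytokines 10 of 30 were tested, 4 above and 6 below WT, with a median of -0.081; Il18 was at -0.77 (SE 0.33) and Tnfsf10, which encodes TRAIL, at 0.20 (SE 0.11). The cytokine median was -0.40 in females alone, 0.096 in males alone and 0.070 without dIEC female 9. Only 3 of 13 receptors and partners of the 8 were tested, Ccr9, Il15ra and Dpp4, at 0.0086, 0.20 and 0.024. Other checkpoint ligands had 6 of 7 above WT with a median of 0.17, among them Tnfrsf14 at 0.26 (SE 0.16) and Icosl at 0.25 (SE 0.19); the median was 0.23 in females alone, -0.038 in males alone and 0.074 without WT female 8. Interferon gamma signalling and targets had 24 of 28 above WT with a median of 0.31; the guanylate-binding protein genes Gbp6 and Gbp7 were at 1.66 (SE 0.58) and 1.22 (SE 0.50), and their near-identical copies make both uncertain. That median was 0.88 in females alone and 0.0057 in males alone, and 0.10 without dIEC female 7. NF-kappaB genes had 18 of 22 above WT with a median of 0.24, with Nfkb2 at 0.53 (SE 0.20) and Relb, its partner, at 0.51 (SE 0.21). The NF-kappaB median was 0.31 in females alone, 0.094 in males alone and 0.11 without dIEC female 7. Of the 6 genes of FAT10 conjugation 5 were above WT with a median of 0.047, Vcp at -0.29 (SE 0.12) and Nub1 at 0.26 (SE 0.16).

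**Figure D4:**
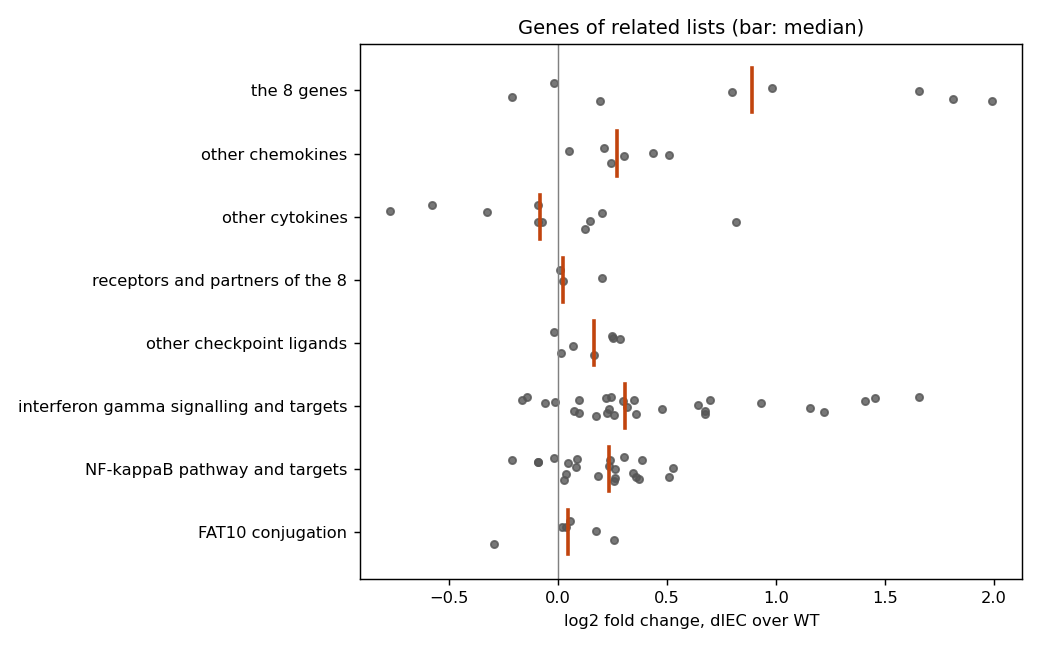
Log2 fold change, dIEC over WT, of each tested gene in each list, with the list's median. The medians run from -0.081 for other cytokines to 0.89 for the 8 genes, beside 0.013 over all genes.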

How the data were processed

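Total RNA of sorted ileal epithelium from 10 mice was made into stranded, ribosome-depleted libraries, per the labels' protocols. The table the authors deposited holds raw counts for each gene. The aligner was Novoalign and the build mm10, as the submitters' processing notes name them. How reads were counted, with which annotation and whether by strand, is not given in the sources used here. Totals of 9174101 to 13484363 counts set the precision. Each listed gene reaches 10 counts in 1 library or more.

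Analysis used R 4.3.3, edgeR 4.0.16, DESeq2 1.42.0 and limma 3.58.1. filterByExpr kept 12477 genes, TMM factors scaled libraries, and log2 CPM used a prior count of 2. The edgeR quasi-likelihood test (robust) fitted sex and genotype, with their interaction in a separate fit, and p-values were Benjamini-Hochberg adjusted over all genes. Calls used an adjusted p under 0.05. Before use, the test was run on simulated counts with known fold changes. Between genotypes it recovered 6.67% of 1.5-fold, 53.8% of 2-fold and 89.3% of 4-fold changes. For the interaction it recovered 0% of 1.5-fold and 2-fold changes and 17.1% of 4-fold changes. The simulated means did not carry the differences in proliferation score between libraries. Between genotypes 110 genes were called in the simulation and 2 in the data, so the adjusted threshold was easier to pass in the simulation. Changed genes were drawn from all levels. These shares are therefore not the chance of detecting a change in the 8 genes here. Alternatives were library size scaling, other filters, DESeq2, limma voom with sample weights, a proliferation covariate, each sex or genotype alone and each mouse left out. The slopes on scores, and the leave-out fits of the sex comparison with a score, were chosen after seeing the data. Places and exon lengths are from GENCODE M21 on GRCm38, and promoters from RefSeq, which matched 6 of the 8 genes.

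The members and lists were chosen with earlier results of these data known. Genes named from a list were those past the threshold, or otherwise up to 2 with the smallest unadjusted p and a mean of at least 1 CPM, and the 3 genes of highest Pearson r for each member. Mice are separate animals, and p-values set a fitted difference against the spread between mice that the fit leaves unexplained. In fits without the proliferation score, that spread includes the differences in the score. Pairs of libraries within a genotype differed by more than sampling noise (chi-square of 16 to 152 per degree of freedom).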

Additional observations from a re-analysis of the deposited data

Results flagged for a closer look

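Cd274 stood apart in dIEC female 7, at 17.2 CPM where the nearest dIEC mouse had 6.48 CPM (Dixon's ratio 0.79). Of 18 groups of 5 examined, the 8 genes and H2-Ab1 in each genotype, 1 had such a library, and chance gives 0.9 if values are normally spread. The ratio was taken on CPM and was not taken on log2 CPM, so the flag holds for the CPM scale only. The same mouse had the lowest proliferation score, 2.93, and the highest interferon gamma score, 6.47, and the part of either in its Cd274 level was not tested.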

How the results depend on the processing

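Between genotypes the 8 fold changes kept their direction under the other settings run except Ccl28, at 0.021 with library size scaling and 0.56 in females alone, and Cxcl10, at -0.079 in males alone. The number of genes called between genotypes was 4 with DESeq2, 4 with the proliferation covariate and 0 in females alone. Between the sexes 13 genes were called with DESeq2, 464 with the proliferation covariate (2 of the 8) and 0 in WT alone or dIEC alone; Il15 was at 0.21 and Ubd at -0.48 with limma voom, Cd274 at -0.36 with the covariate and Ccl28 at 0.23 in dIEC alone. For the interaction 18 genes were called with DESeq2 (1 of the 8), 11 with the covariate and 0 with library size scaling or limma voom, and Ccl20 was at -0.23 with the covariate. On the proliferation score 6 of the 8 were called with library size scaling and 5 with DESeq2. The Ubd slope on that score was 0.094 with library size scaling and 0.85 with limma voom. For the interferon gamma score 0 genes were called with library size scaling, 39 with DESeq2 (1 of the 8) and 610 with limma voom (2 of the 8). The cause was not tested. With each mouse left out, the genotype log2 fold change ran from -0.59 to 0.18 for Ccl28, -0.10 to 0.48 for Il15, 1.58 to 2.36 for Ccl20, 0.61 to 1.02 for Il7, 1.07 to 1.97 for Cd274, 0.56 to 2.29 for Cxcl10, 1.02 to 2.58 for Ubd and -0.27 to -0.063 for Ccl25, and 2 genes were called each time. The difference between females and males ran from -0.97 to 0.030 for Ccl28, -0.58 to 0.60 for Cd274, 0.21 to 0.51 for Ccl25 and -0.44 to 1.15 for Ubd. The interaction ran from -1.04 to 1.42 for Ccl20, -0.62 to 0.068 for Ccl25, -0.67 to 1.70 for Ccl28, -1.39 to 0.45 for Il15, -0.11 to 3.23 for Cd274, 0.39 to 3.09 for Cxcl10 and 5.36 to 6.50 for Ubd, with 0 to 1 genes called. On the proliferation score 2 to 5 of the 8 were called, and the Ubd slope ran from -0.70 to 1.49. The interferon gamma score gave 0 to 3 genes, and the sex comparison with the proliferation score 8 to 595 genes and 0 to 2 of the 8. No paired analysis was run because the labels state no pairing of mice. The count filter removed Ccl20 in females alone, Ccl20, Cxcl10, Il7, Cd274 and Ubd in WT alone, and Ccl20 and Cxcl10 in dIEC alone, so these fits gave no value. Low counts limit Ccl20, Cxcl10 and Il7.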
